A study of Mus musculus with 17 samples.

Results

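The genes described here encode the collagens, the laminins and the proteins that bind them into basement membranes and interstitial matrix, measured in sorted cells of the lacrimal gland and spleen of male NOD mice, a strain that develops spontaneous lymphocytic inflammation of the tear gland and serves as a model of Sjogren's syndrome. Members were chosen by symbol: every collagen alpha chain, every laminin alpha, beta or gamma chain, and Nid1, Nid2, Hspg2, Fn1, Sparc and Postn. Of the 17097 genes measured with a probe set of their own, 55 are members: 42 collagen chains, 8 laminin chains and 5 others. Genes that match but had no such probe set, such as Col28a1, Col6a6, Lama4, Lama5 and Nid2, were not analysed here. Each gene is represented by its probe set with the highest mean over the 17 arrays, and values are log2 intensities as deposited.

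The arrays fall into 5 groups. Gland epithelial cells were sorted as CD45- CD326+ cells (3 arrays), gland B cells as CD45+ B220+ CD3- cells (4 arrays) and gland CD4+ T cells as CD45+ CD3+ CD4+ cells without B220 (4 arrays), the lymphocytes being also negative for NKp46, CD11b and CD11c. Spleen B cells and spleen CD4+ T cells have 3 arrays each and are the steady-state reference. The sample labels give an age of 16 weeks for every donor, whereas the series' design text gives 4 weeks for the spleen donors. Age and organ therefore cannot be told apart in any gland against spleen comparison. All groups are untreated NOD cells, no other strain is among them, and the gland was dissociated mechanically and with enzymes before the sort. Nothing states that arrays of a group came from separate animals, so p-values measure the spread between these arrays, which may be technical.

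Basement membranes are thin sheets beneath epithelia and endothelia and around muscle cells. Laminin trimers, each of an alpha, a beta and a gamma chain, assemble on the cell surface through integrins and dystroglycan, a network of type IV collagen trimers is laid over them, and nidogen and perlecan link both. In exocrine glands the sheet surrounds acini, ducts and the contractile myoepithelial cells, while fibrillar and type VI collagens fill the connective tissue between them. Fibroblasts, myoepithelial cells, endothelial cells and pericytes are known makers of these proteins, so the cells present in a sort bear on their level.

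The type IV collagen genes lie head to head in pairs on the chromosome, and the members with the highest differences in this data set belong to such a pair. RefSeq windows of 300 bases (250 before to 50 after a transcript start, build GRCm38.p6) were available for 41 of the 55 members. Col4a1 (chr8:11312777-11313076, minus strand) and Col4a2, on the plus strand, start 21 bases apart, so their windows share 78 bases, shown in capitals in the first sequence because both genes' transcripts start inside them. Col4a6 (chrX:141474027-141474326, minus strand) and Col4a5 (chrX:141475169-141475468, plus strand) start 1343 bases apart and share no base of their windows. Capitals in these sequences mark the letters GGGCGG or their reverse complement, found once in each.

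Col4a1: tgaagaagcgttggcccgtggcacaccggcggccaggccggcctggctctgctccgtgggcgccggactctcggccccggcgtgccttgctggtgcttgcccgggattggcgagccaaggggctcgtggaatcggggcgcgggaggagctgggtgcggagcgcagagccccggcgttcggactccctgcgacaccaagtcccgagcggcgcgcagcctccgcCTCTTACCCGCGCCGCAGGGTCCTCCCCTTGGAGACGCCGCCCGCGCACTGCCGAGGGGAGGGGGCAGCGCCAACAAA
Col4a6: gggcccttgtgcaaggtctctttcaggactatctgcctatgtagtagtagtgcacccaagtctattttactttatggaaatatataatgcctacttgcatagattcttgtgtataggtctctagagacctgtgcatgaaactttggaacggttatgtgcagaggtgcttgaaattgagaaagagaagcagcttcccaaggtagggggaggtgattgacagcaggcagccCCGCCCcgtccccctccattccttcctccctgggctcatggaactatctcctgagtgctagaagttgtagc
Col4a5: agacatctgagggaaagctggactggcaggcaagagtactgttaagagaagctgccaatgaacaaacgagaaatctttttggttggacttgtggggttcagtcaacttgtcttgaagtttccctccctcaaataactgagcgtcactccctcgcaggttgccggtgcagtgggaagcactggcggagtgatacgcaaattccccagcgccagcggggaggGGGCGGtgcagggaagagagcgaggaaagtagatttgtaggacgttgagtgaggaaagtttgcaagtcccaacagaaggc

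Counted on both strands, GGGCGG, the core of a GC box, was present in 56.5% of the members' 46 windows and in 35.7% of the 32851 windows of all genes. CCAAT was present in 34.8% of the members' windows against 37.4% of all, TATAAA in 13.0% against 13.6%, CAGCTG in 19.6% against 16.3% and TGANTCA in 2.17% against 7.81%. A match describes the letters of the window and no more.

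Many members were higher in the epithelial sort than in the gland lymphocytes, led by type IV collagen, Col3a1, Sparc and Postn. A gene was called higher when limma's test across all 17097 genes gave a Benjamini-Hochberg adjusted p under 0.05, the log2 difference from the gland lymphocytes (B and CD4+ T means averaged) was at least 1 (a fold of 2), and its mean exceeded that of each subset. Of the 55 members 28 were called higher, where 14.9% of all genes were, and 1, Col6a4, was called lower, where 9.81% of all genes were. The median log2 difference was 1.06 over the members and -0.10 over all genes. In bulk sorts, fewer cells of a type and less RNA per cell cannot be told apart. The highest of the 5 group means was that of epithelium for 38 members, of gland B cells for 7, of splenic B cells for 4, of gland CD4+ T cells for 2 and of spleen CD4+ T cells for 4. The values carry no detection call. As a yardstick, the median of all deposited values was 4.71, and 36 members had a mean above it in epithelium, against 16 in B cells of the gland, 16 in B cells of the spleen, 12 in gland CD4+ T cells and 13 in spleen CD4+ T cells. Where the lymphocyte level lies below that median, a fold is the ratio of deposited values and can differ from the ratio of transcripts.

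**Figure D1:**
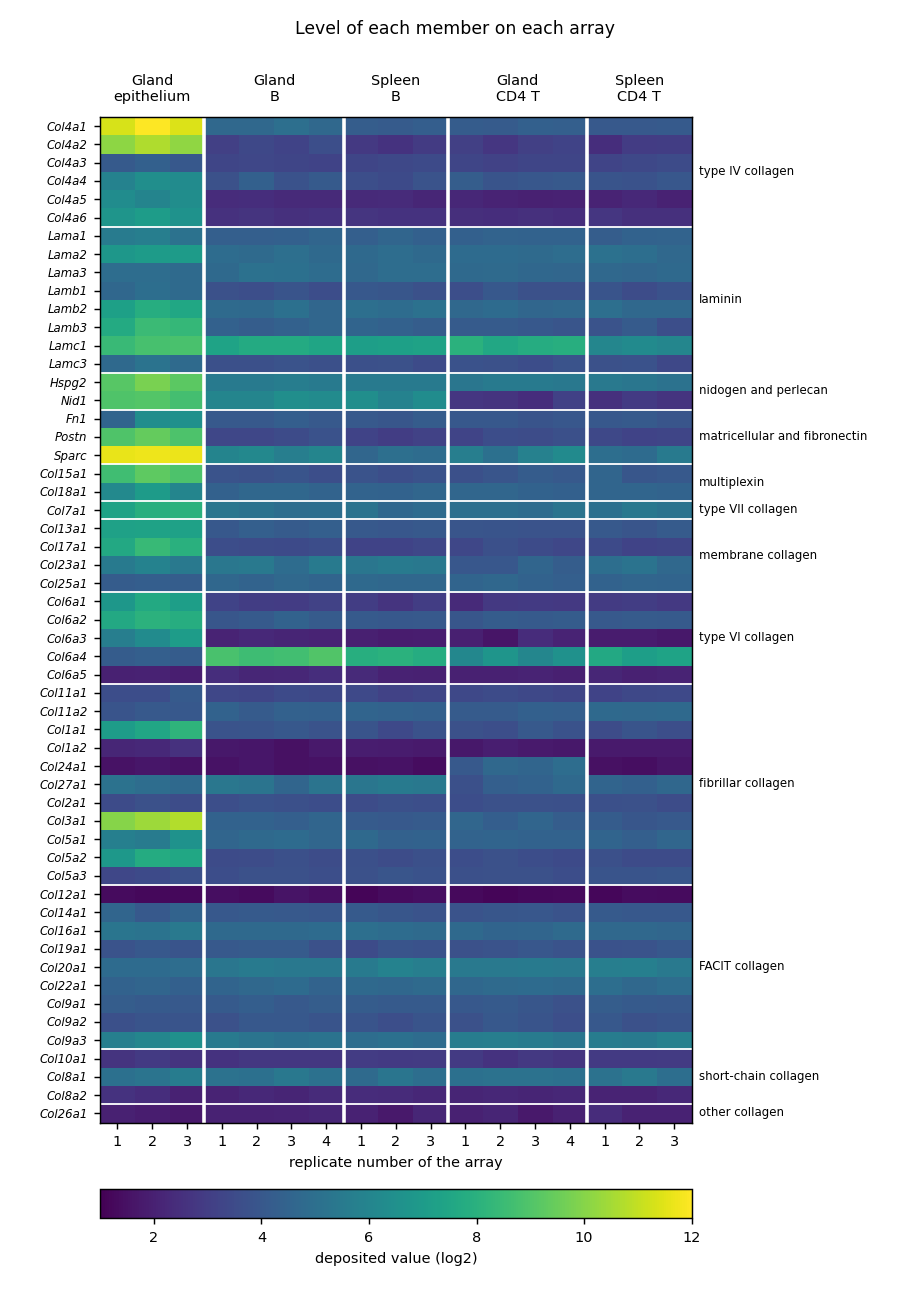
Level of each of the 55 members (rows, ordered by protein family) on each of the 17 arrays (columns, by group and replicate), as deposited log2 intensity on a colour scale. Epithelium has the highest group mean for 38 members, and Col6a4 and Col24a1 have theirs in a lymphocyte group.

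The type IV collagen chains that form the common network, Col4a1 and Col4a2, had the largest differences of any member. The Col4a1 level was 11.34, 11.98 and 11.41 in the 3 epithelial arrays, 4.72, 4.72, 5.02 and 4.72 in the gland B arrays, and 4.18, 4.17, 4.35 and 4.33 in the gland CD4+ T arrays. All epithelial arrays were far above all lymphocyte arrays, with no overlap. The log2 difference of Col4a1 was 7.05 (SE 0.11, 133-fold, limma with Benjamini-Hochberg adjustment, adjusted p = 2.1e-16). The Col4a2 level was 10.11, 10.68 and 10.18 in epithelium, between 3.09 and 3.62 in gland B cells and between 2.73 and 3.21 in gland CD4+ T cells. Both genes were thus highest in epithelial replicate 2, as were 21 of the 28 members called higher in all. Col4a2 differed by 7.14 (SE 0.16, 142-fold, limma adjusted p = 4.5e-15). Col4a1 and Col4a2 are the genes whose promoter windows overlap in the first sequence above.

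The other type IV chains, whose trimers have a more restricted distribution, differed less. Col4a6 and Col4a5, neighbours on the X chromosome, differed by 4.26 and 4.00 on the log2 scale, with epithelial levels of 6.80 ± 0.25 and 6.23 ± 0.25 (SD, n = 3). Their gland lymphocyte means lay between 2.10 and 2.60. Col4a4 differed by 2.19, from 6.21 ± 0.27 in epithelium, but its other probe set gave -0.74, so its direction rests on the probe set used. Col4a3, its partner in the kidney-type network, differed by 0.90 (adjusted p = 3.58e-08) and missed the fold of 2, with all 3 epithelial arrays (4.12, 4.37 and 4.03) below the median of all values. In all, 5 of the 6 type IV chains were called higher.

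**Figure D2:**
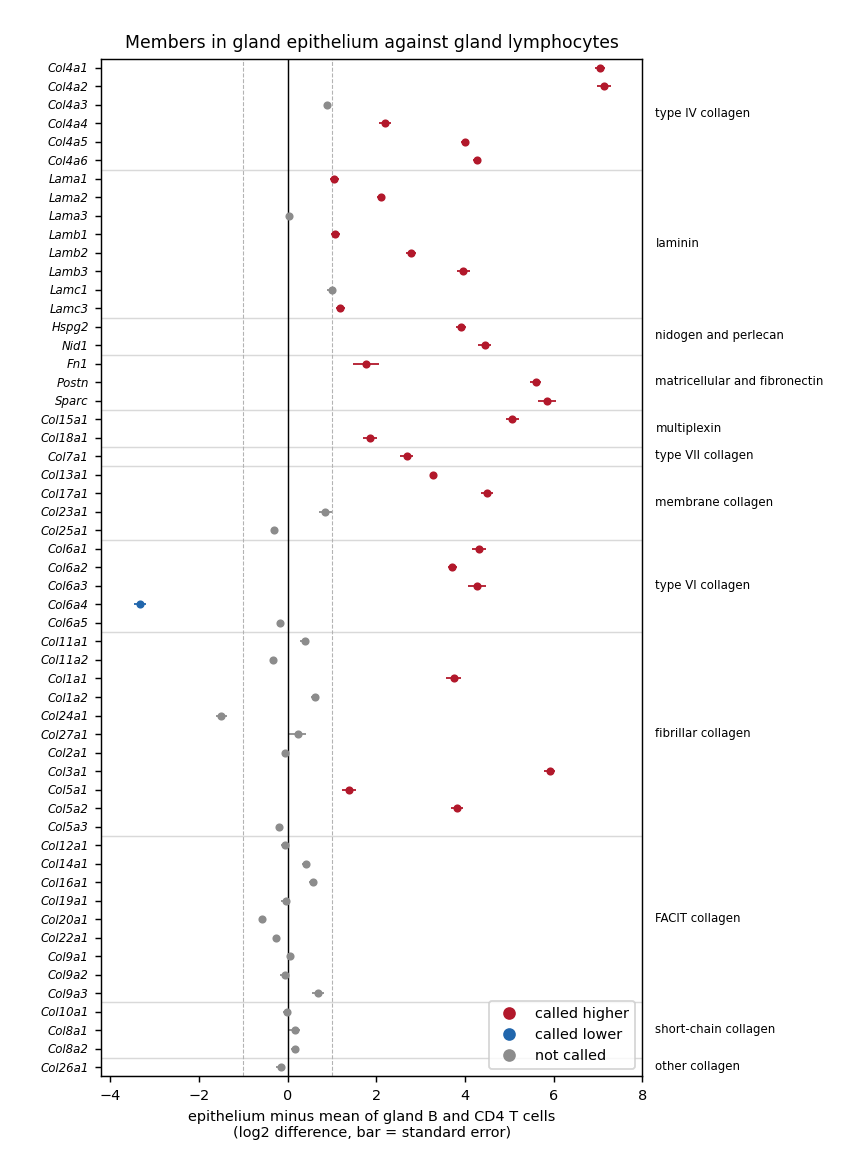
Log2 difference of each member between epithelium and the averaged gland lymphocyte subsets, one row per member by family; bars are standard errors, red and blue points were called higher and lower, and dashed lines mark a fold of 2. Col4a1 (7.05) and Col4a2 (7.14) lie farthest to the right and Col6a4 (-3.33) farthest to the left.

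Of the 8 laminin chains measured, 6 were called higher in epithelium. Lamb3, the beta chain of the laminin that anchors hemidesmosomes, stood at 7.74, 8.51 and 8.34 in the epithelial arrays, at 4.40, 4.22, 4.41 and 4.63 in gland B cells and at 4.15, 4.14, 4.05 and 3.89 in gland CD4+ T cells. The groups did not overlap, and the log2 difference was 3.96 (SE 0.15, adjusted p = 1.51e-12). Lamb2, a beta chain of vascular and neuromuscular basement membranes, differed by 2.78 from an epithelial level of 7.55 ± 0.30. Lama2, the alpha chain best known around muscle and nerve fibres, differed by 2.10 and had close epithelial values of 6.82, 7.05 and 7.02. The widespread beta chain Lamb1, the mainly embryonic alpha chain Lama1 and the gamma chain Lamc3 differed by 1.08, 1.05 and 1.19 in the probe sets used. All were called. The other Lamb1 probe sets ranged from almost no difference to far larger ones, as given below. With averaged probe sets Lamc3 differed by 0.59 and was not called. Leaving out epithelial replicate 2 took Lama1 to 0.93 and Lamb1 to 0.99, both then under the fold of 2.

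The remaining laminin chains were Lama3 and Lamc1. Lama3, the alpha chain that pairs with Lamb3 in hemidesmosomal laminin, differed by 0.04 (adjusted p = 0.669) in the probe set used and by 4.92 in its other probe set. Lamc1, the gamma chain of most laminins, was the laminin chain with substantial signal outside the epithelium. Its level was 8.45, 8.80 and 8.85 in epithelium, 7.38, 7.73, 7.74 and 7.47 in gland B cells, and 8.01, 7.61, 7.80 and 7.92 in gland CD4+ T cells. The epithelial arrays were above all gland lymphocyte arrays, yet the difference of 0.99 (SE 0.11) stopped just short of the fold of 2. It was 1.12 without epithelial replicate 1 and 2.01 against spleen lymphocytes, past the threshold in both.

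The linkers Nid1 (nidogen, which bridges laminin and type IV collagen) and Hspg2 (perlecan, a heparan sulphate proteoglycan) were both called higher. Hspg2 stood at 9.14, 9.80 and 9.23 in epithelium, between 5.48 and 5.64 in gland B cells and between 5.32 and 5.50 in gland CD4+ T cells, a difference of 3.92 (SE 0.11, adjusted p = 5.99e-14 by limma with Benjamini-Hochberg adjustment). Nid1 stood at 8.95, 9.05 and 8.73 in epithelium and differed by 4.45 (SE 0.15) from the lymphocyte mean, which joins unlike values: 6.19 ± 0.23 (SD, n = 4) in gland B cells and 2.74 ± 0.28 (SD, n = 4) in gland CD4+ T cells.

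Collagens that tie the sheet to cells and stroma followed. Col17a1, the transmembrane collagen of hemidesmosomes, was 7.62, 8.41 and 7.99 in epithelium and 3.32 to 3.71 over the 8 gland lymphocyte arrays, a difference of 4.50 (SE 0.13). Col7a1, which forms anchoring fibrils below the sheet, differed by 2.69. Col13a1, a membrane collagen of adhesion sites, differed by 3.29, and its epithelial arrays (7.31, 7.33 and 7.31) were the closest to each other of all members. The multiplexins Col15a1 and Col18a1, which lie at the stromal face of vascular and epithelial basement membranes and carry the endostatin domain, differed by 5.07 and 1.86. Of the other membrane collagens, Col23a1 differed by 0.85 and Col25a1 by -0.30, and neither was called. The other Col23a1 probe sets gave 2.03 and 1.80, and with averaged probe sets Col23a1 differed by 1.56 and was called.

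The matrix-associated glycoproteins were all called. Sparc, a collagen-binding protein made by many stromal and endothelial cells, was 11.63, 11.73 and 11.69 in epithelium, 5.71 to 6.15 in gland B cells and 5.04 to 6.27 in gland CD4+ T cells. Its log2 difference was 5.85 (SE 0.20, 57.7-fold, limma adjusted p = 4.47e-13). Postn, periostin, a matricellular protein of connective tissue, was 8.97, 9.40 and 8.93 in epithelium and 3.24 to 3.75 over the 8 gland lymphocyte arrays, a difference of 5.60. Fn1, fibronectin, was the least even: 4.53, 6.41 and 6.54 in epithelium against 3.87 to 4.29 over the 8 gland lymphocyte arrays. Epithelial replicate 1 stood just above the lymphocytes and the other two well above them. The difference of 1.77 (SE 0.29, limma adjusted p = 4.98e-05) became 2.42 without replicate 1.

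Among collagens of the interstitium, 3 of the 5 type VI chains and 4 of the 11 fibrillar chains were called higher in epithelium, and Col6a4 was called lower. Col6a1, Col6a2 and Col6a3, which assemble into the beaded filaments around cells, differed by 4.32, 3.71 and 4.27. Col6a3 was uneven, at 5.70, 6.30 and 7.06 in the epithelial arrays. Col6a4, a further alpha chain of type VI collagen, went the other way: 4.22, 4.33 and 4.18 in epithelium, 8.82, 8.60, 8.69 and 9.01 in gland B cells, and 6.07, 6.74, 6.07 and 6.55 in gland CD4+ T cells. The epithelial arrays were below every lymphocyte array, and the difference was -3.33 (SE 0.14, limma adjusted p = 7.09e-12). Its second probe set gave -0.69 and was not called. Col6a5 differed by -0.16 and had means of 2.0 to 2.32 in the 5 groups.

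The fibrillar collagens of loose connective tissue were present in the epithelial sort. Col3a1, the main chain of reticular fibres, was 9.997, 10.37 and 10.73 in epithelium and 4.26 to 4.63 over the 8 gland lymphocyte arrays, a difference of 5.92 (SE 0.13, 60.3-fold, limma adjusted p = 3.31e-15). Col1a1, the major chain of type I collagen, was 7.09, 7.50 and 8.17 in epithelium and differed by 3.75 (SE 0.17). Replicate 3 had the highest value of both genes. The partner chain Col1a2 differed by 0.61 (adjusted p = 7.3e-06) and was at 2.33 ± 0.20 in epithelium, below the median of all values, on its single probe set. Col5a2 and Col5a1, chains of the collagen that seeds type I fibrils, differed by 3.82 and 1.38. Col24a1 differed by -1.49 but was not called lower, since its epithelial mean (1.58) was not below that of gland B cells (1.57). The other fibrillar chains (Col2a1, Col5a3, Col11a1, Col11a2 and Col27a1) differed by -0.32 to 0.39 in the probe sets used. The second Col5a3 probe set was called higher.

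The remaining families were not called in the probe sets used. None of the 9 fibril-associated collagens passed (5 had an unadjusted limma p under 0.05, or 55.6%, against 67.8% of all genes), with differences from -0.58 for Col20a1 to 0.70 for Col9a3. Among them Col16a1 (0.57, 5.30 ± 0.14 in epithelium), Col9a3 (6.11 ± 0.37) and Col20a1 (4.87 ± 0.04) had epithelial means above the median of all values, and Col9a1, Col9a2, Col12a1, Col14a1, Col19a1 and Col22a1 did not. The short-chain collagens Col8a1, Col8a2 and Col10a1, of endothelial and cartilage matrix, differed by 0.16, 0.17 and -0.02. Col26a1 differed by -0.15. Col14a1, Col9a1, Col9a3 and Col8a1 each had another probe set that was called higher. With averaged probe sets Col14a1 differed by 2.46, Col9a1 by 1.22 and Col8a1 by 1.16, and all were called.

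For several members the count depends on the probe set. Of the 28 members with more than 1 probe set, 22 had at least 1 that was called higher in epithelium and 10 had all of them called, or 45.5% of the 22. Of the 7180 genes with several probe sets, 1566 had at least 1 called higher and 500 had all of them called, or 31.9% of the 1566. Lamb1 gave 4.87, 4.32 and -0.02 besides 1.08, Col14a1 gave 5.21 and 1.75 besides 0.41, Col8a1 gave 2.97 and 0.34 besides 0.16, Col9a1 gave 2.38 besides 0.07, and Col25a1 gave 1.69 besides -0.30. In the opposite direction, Lamc3 gave -0.02 besides 1.19 and Col5a1 gave 0.03 and 1.98 besides 1.38. When a gene counted as higher if any of its probe sets was called, 36 members were higher, where 17.1% of all genes were.

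**Figure D3:**
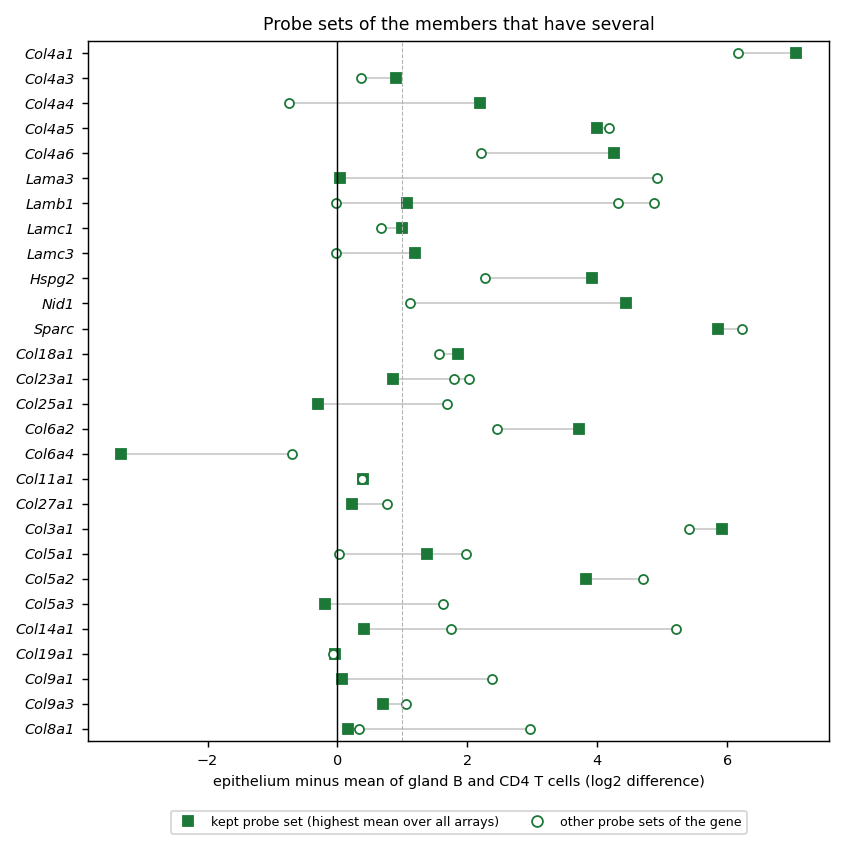
Log2 difference between epithelium and gland lymphocytes for every probe set of the 28 members that have several; filled squares mark the probe set used and open circles the others. Lama3 spans 0.04 to 4.92 and Lamb1 -0.02 to 4.87, whereas the Col3a1, Col4a5 and Sparc probe sets lie close together and far above 1.

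Many members had their lowest epithelial value in the same array. Of the 28 members called higher, 20 had their lowest epithelial value in replicate 1 (71.4%), 2 in replicate 2 and 6 in replicate 3, while 21 had their highest in replicate 2 and 7 in replicate 3. Of all 2540 genes called higher, 47.6% were lowest in replicate 1, and of all genes tested 35.5%. Replicate 1 minus the mean of the others had a median of -0.34 over the 28 members and -0.12 over the 2540 genes. Fn1 (-1.94), Col6a3 (-0.98) and Col5a2 (-0.78) lay farthest below, whereas Nid1 (0.06), Lama1 (0.12) and Col4a5 (0.16) were slightly above. Leukocyte transcripts were also higher in replicate 1: Ptprc, which encodes CD45 and was gated out, was 9.62 in replicate 1 and 2.42 and 2.37 in the others, and the summed level of 8 leukocyte genes was 12.1 against 8.19 and 8.17 (log2 of the sum). The sums of 8 T cell genes (10.1 against 6.85 and 6.71) and 12 macrophage genes (9.80 against 8.16 and 8.20) moved with it. The part of leukocyte RNA in the lower member values was not tested. Without replicate 1, 29 members were called higher, the 28 and Lamc1.

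Markers of other matrix-making cells were high in the same sort, mainly those of myoepithelial and endothelial cells and less so those of fibroblasts and pericytes. Of 10 myoepithelial genes, 10 were called higher than in gland lymphocytes, among them Acta2 (6.36), Krt14 (5.75) and Trp63 (5.31), and their summed level was 12.9 to 13.0 in epithelium against 7.64 to 8.28 in gland lymphocytes. Of 14 endothelial genes, 12 were called higher, including Tek (7.40), Flt1 (7.22), Plvap (6.82) and Emcn (6.65), with sums of 12.6 to 13.0 against 7.87 to 8.86. The endothelial cadherin Cdh5 was 6.22, 7.26 and 5.92 in the epithelial arrays. Of 12 fibroblast genes, 6 were called higher, led by Dcn (4.96) and Dpt (4.24), while Pdgfra, the receptor that defines many fibroblasts, stood at 3.01, 4.29 and 3.21. The fibroblast sum (9.78 to 10.2 in epithelium) is compared with gland B cells only (7.40 to 7.58), because T cells express Thy1. Of 5 pericyte genes, 2 were called higher (Notch3 and Kcnj8), and Rgs5 was 4.52, 4.44 and 4.03, no higher than in lymphocytes. Of 11 epithelial genes 11 and of 9 secretory genes 8 were called higher. The share of each cell type in the members' levels was not tested.

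**Figure D4:**
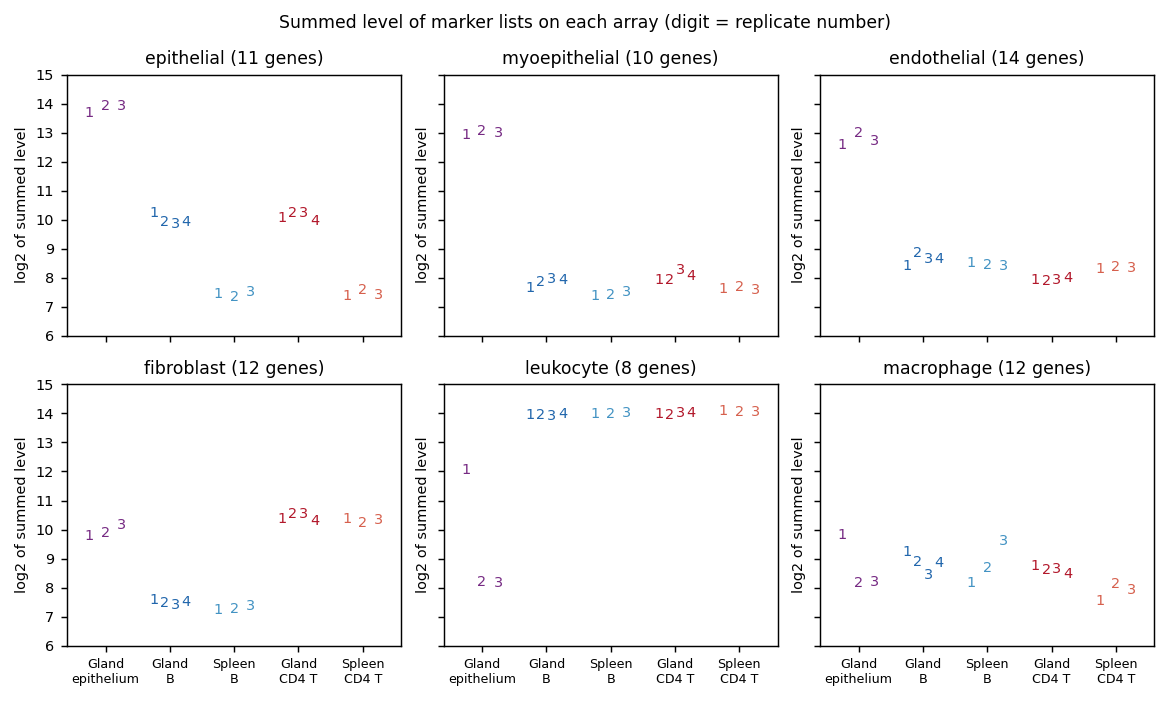
Summed level of marker lists per array (log2 of the sum of linear values) in the 5 groups, each digit being the replicate number of an array. Endothelial and myoepithelial sums are 12.6 or more in all epithelial arrays, the leukocyte sum is raised in epithelial replicate 1 (12.1), and the epithelial sum in gland lymphocytes (9.84 to 10.2) lies above that in spleen lymphocytes (7.35 to 7.56).

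Genes that make, process or bind these proteins were also often higher in the epithelial sort. Of 19 genes for collagen modification and secretion, 8 were higher, including Serpinh1 (4.49), the collagen chaperone, the proline hydroxylases P3h2 (3.25) and P4ha2 (1.97), and the galactosyltransferase Colgalt2 (2.23). Of 13 processing and cross-linking genes, 3 were higher: Pxdn (5.92), which makes the sulfilimine bonds of type IV collagen, Pcolce (2.37), which enhances procollagen cleavage, and the transglutaminase Tgm2 (1.12). Of 20 other basement membrane genes, 8 were higher, led by Sparcl1 (5.51), Tinagl1 (4.84), Smoc2 (4.47) and Agrn (3.19).

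Of 21 receptors of collagen and laminin, 8 were higher, such as Cd93 (5.60), an endothelial receptor, Sdc2 (4.61), a syndecan, Itga1 (3.73), a collagen-binding integrin, and Itgb4 (2.82), the hemidesmosome integrin. The collagen receptor of leukocytes Lair1 (-3.56) and the hyaluronan receptor Cd44 (-2.76) were lower. Lair1 was 6.21 in epithelial replicate 1 and 2.27 and 2.26 in the others. Of 23 other interstitial matrix genes, 16 were higher, led by Efemp1 (5.77), Ltbp1 (5.25), Prelp (4.31) and Bgn (3.89), and the fibrillin Fbn2 (-1.24) was lower. These lists are read against the 14.9% and 9.81% of all genes given above.

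In B cells, few matrix genes passed the test between gland and spleen. Of the 55 members 1 was called higher in the gland, where 2.58% of all genes were, and 0 were called lower by limma, where 1.60% of all genes were, while 12 members (21.8%) and 29.4% of all genes had an unadjusted p under 0.05. The median difference was 0.08 over the members and 0.00 over all genes. Sparc was 5.95, 6.15, 5.71 and 6.02 on the gland B arrays and 4.65, 5.01 and 4.88 on the spleen B arrays. The groups did not overlap, and the difference was 1.11 (SE 0.22, limma with Benjamini-Hochberg adjustment, adjusted p = 0.00261). The second Sparc probe set differed by 0.27, and with the mean of both probe sets the difference was 0.69 and no longer called. Col4a1 (0.56, adjusted p = 0.00574) and Col4a2 (0.54, adjusted p = 0.0471) were higher by less than the fold of 2, as was Col6a4 (0.87, adjusted p = 0.00141). Epithelial transcripts were higher in the same gland B arrays: Krt18 differed by 4.28, the secretory gene Obp1a by 7.22, 5 of 11 epithelial and 9 of 9 secretory genes were called higher, and the epithelial sum was 9.84 to 10.2 against 7.35 to 7.52. The part of epithelial RNA in the Sparc and Col4a1 differences was not tested.

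In CD4+ T cells 2 members were called higher in the gland, Col24a1 and Lamc1, where 5.35% of all genes were, and 1 was called lower, Col6a4, where 1.62% of all genes were. The median difference was -0.04 over the members and -0.03 over all genes. Col24a1, a fibrillar collagen chain known from developing bone and eye, was 4.06, 4.72, 4.58 and 4.94 in gland CD4+ T cells and 1.50, 1.41 and 1.63 in spleen CD4+ T cells. It was 1.51 to 1.67 in B cells of the gland, 1.38 to 1.55 in those of the spleen and 1.53, 1.66 and 1.55 in epithelium. The gland T cell arrays stood apart from the other 13 arrays, although at levels near the median of all values. The difference from spleen was 3.06 (SE 0.15, 8.36-fold, limma with Benjamini-Hochberg adjustment, adjusted p = 4.77e-10), on the gene's single probe set. Because the gene was not above the median of all values in 3 arrays, it drops out when such genes are filtered. Epithelial genes were higher in these arrays too (6 of 11, and 9 of 9 secretory genes). The epithelial sum was 9.95 to 10.2 against 7.39 to 7.56 in spleen CD4+ T cells. Epithelium itself had Col24a1 at the level of the spleen cells, and the part of epithelial RNA in the Col24a1 difference was not tested.

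Lamc1 was 8.01, 7.61, 7.80 and 7.92 in gland CD4+ T cells and 6.04, 6.27 and 6.05 in spleen CD4+ T cells, with no overlap. The difference was 1.72 (SE 0.12, 3.28-fold, limma adjusted p = 5.59e-08), and the second Lamc1 probe set gave 1.57. Epithelium had a higher Lamc1 level than either (8.70 ± 0.22), and the part of epithelial RNA in this difference was not tested. Col6a4 was 6.07, 6.74, 6.07 and 6.55 in gland CD4+ T cells and 7.64, 7.17 and 7.36 in spleen CD4+ T cells. All gland arrays were lower, by 1.04 on the log2 scale on average (SE 0.16, limma adjusted p = 1.57e-04). This call is narrow: the log2 difference was -0.94 without gland T replicate 1 or 3, -0.91 without spleen T replicate 1, and -0.69 with the mean of both probe sets, the second of which is dim.

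**Figure D5:**
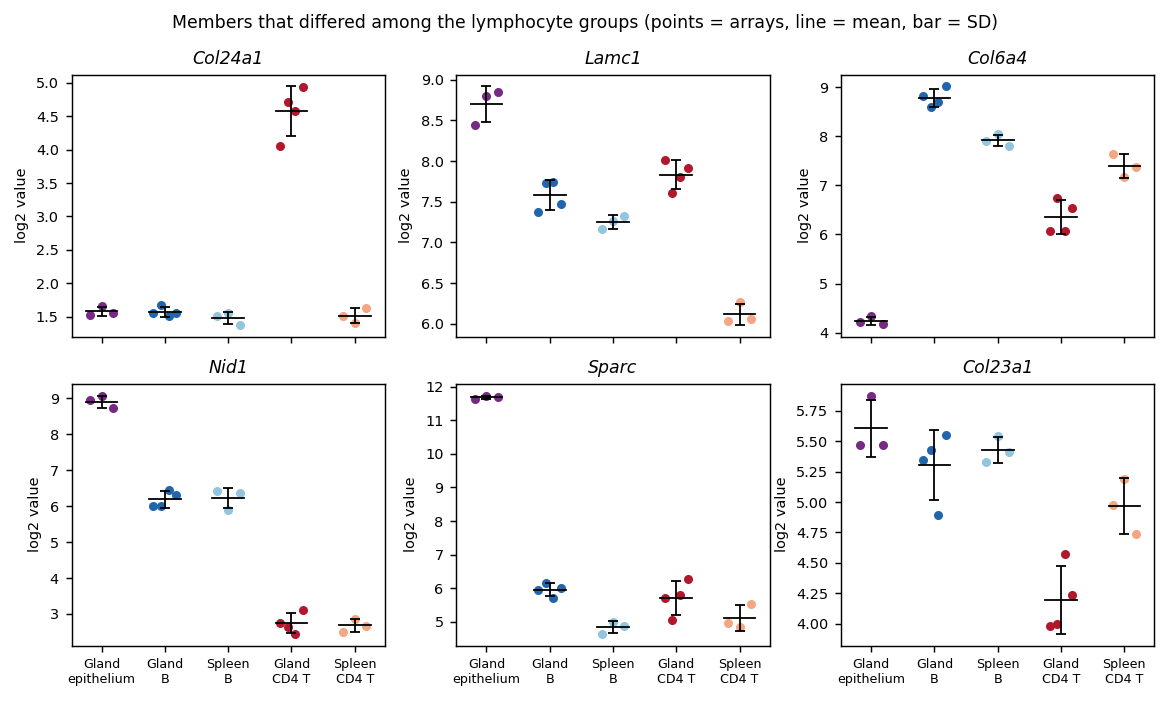
Deposited log2 intensity of the members called in a lymphocyte comparison, one point per array in each of the 5 groups; horizontal lines are group means and bars the SD, and each panel has its own axis range. Col24a1 is at 4.06 to 4.94 in gland CD4+ T cells and at 1.38 to 1.67 elsewhere, and Nid1 is near 6 in both B cell groups and near 3 in both T cell groups.

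The gland against spleen difference was itself compared between B and CD4+ T cells. The comparisons below use the same lymphocyte arrays as those above, so a member called in several of them is not called independently. For 1 member, Col6a4, the difference was more positive in B cells (1.90, SE 0.23, limma adjusted p = 3.21e-05), where 1.22% of all genes were called in that direction. For 2 members it was more negative in B cells, where 3.87% of all genes were: Col24a1 (-2.98, limma adjusted p = 1.24e-07) and Lamc1 (-1.39, SE 0.18, limma adjusted p = 6.44e-05). Col6a4 thus ran from 7.91 ± 0.12 in spleen B cells to 8.78 ± 0.18 in gland B cells in the probe set used. In CD4+ T cells it ran from 7.39 ± 0.24 in the spleen to 6.36 ± 0.34 in the gland. Its second probe set was not called, and with averaged probe sets the Col6a4 value was 0.98 and no longer called. The Sparc difference was not called between cell types (0.52, limma adjusted p = 0.381).

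Between the lymphocyte types in the gland, 3 members were higher in B cells, where 3.73% of all genes were, and 1 was lower, where 5.97% of all genes were. Nid1 was 5.99, 6.0, 6.44 and 6.32 in gland B cells and 2.76, 2.63, 2.45 and 3.12 in gland CD4+ T cells. The groups were far apart, by 3.44 (SE 0.16, 10.9-fold, limma adjusted p = 5.36e-11), but the second Nid1 probe set, dim in all lymphocytes, gave 0.29. Col6a4 was higher in B cells by 2.42 (SE 0.15, limma adjusted p = 1.87e-09), but its second probe set was not called. Col23a1 was 5.35, 5.43, 4.90 and 5.55 in gland B cells and 3.98, 3.99, 4.58 and 4.24 in gland CD4+ T cells, a difference of 1.11 (limma adjusted p = 4.84e-05) that its other probe sets (0.36 and 0.03) did not show as calls. Col24a1 was lower in B cells, by 3.01 (limma adjusted p = 4.12e-11).

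In the spleen 2 members were higher in B cells, where 4.63% of all genes were, and 0 were lower by limma, where 4.52% of all genes were, while 10 members (18.2%) and 30.4% of all genes had an unadjusted p under 0.05. Nid1 was 6.42, 5.89 and 6.37 in spleen B cells and 2.51, 2.86 and 2.67 in spleen CD4+ T cells, a difference of 3.54 (SE 0.18, limma adjusted p = 2.94e-10) where the second Nid1 probe set gave 0.24. Gland and spleen B cells overlapped in Nid1 (difference -0.04, SE 0.17). Lamc1 was 7.16, 7.26 and 7.33 in spleen B cells, higher than in spleen CD4+ T cells by 1.13 (SE 0.13, limma adjusted p = 6.28e-06). Its second probe set gave 0.998, just under the fold of 2. In the gland the difference was -0.25 (limma adjusted p = 0.115). Col27a1, a fibrillar chain of cartilage, was higher in spleen B cells by 0.88 (limma adjusted p = 0.00993), under the fold of 2; its other probe set gave 1.53 and the averaged probe sets 1.20, both called.

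The 5 lists of related genes hold 96 measured genes. In B cells the 1 call between gland and spleen was Cd93, lower in the gland by 1.51 on the log2 scale, which is 1.04% of the lists against 1.60% of all genes. In CD4+ T cells 9 of the 96 were higher in the gland (9.38%, against 5.35% of all genes). Among modification genes 3 of 19 were higher in gland CD4+ T cells, P3h2 (1.60), the endoplasmic reticulum potassium channel Tmem38b (1.33) and the lysine hydroxylase Plod2 (1.32). Among receptors, 3 of 21 were higher, the syndecan Sdc4 (2.61), the integrin chain Itgb1 (1.28) and Cd44 (1.0). Among interstitial genes 3 of 23 were higher, Fbn2 (1.95), Matn2 (1.38) and Tnc (1.22), and none of the 13 processing and 20 other basement membrane genes was called. P3h2, Tmem38b, Plod2, Sdc4, Fbn2, Matn2 and Tnc also had a more negative gland difference in B than in CD4+ T cells, by 1.14 (Plod2) to 2.30 (Sdc4) on the log2 scale.

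Between gland B and CD4+ T cells, the receptors with the largest differences were Itgb1 (-2.61), Sdc4 (2.17), the laminin-binding integrin chain Itga6 (-1.65) and Cd44 (-1.43). Among modification genes, Tmem38b (-2.07), Plod2 (-1.36) and P3h2 (-1.30) were lower and Colgalt1 (1.22) higher in B cells. Matn2 (-2.45), Fbn2 (-2.04), Tnc (-1.34) and Ecm1 (-1.53) were lower in B cells. In the spleen the largest differences among the lists were in Sdc4 (4.48), Itga6 (-2.48), Cd93 (2.34), Ecm1 (-1.97) and Itgb1 (-1.95).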

How the data were processed

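Array values were log2 intensities that the authors deposited, made with Partek and RMA per the submitters' processing notes; versions, filters and genome build are not given in the sources used here. RNA was amplified before labelling, per the labels' protocols. The protocol lists RNA samples of lower integrity by internal number, which could not be matched to arrays. The part of RNA quality in these values was not tested. Of 45141 probe sets, 28898 name exactly 1 gene in the platform annotation, 551 name several and 15692 none here. Each of 17097 genes was represented by its probe set of highest mean (17 arrays). Members and lists were chosen with earlier results of these data known. One limma 3.58.1 fit (R 4.3.3; lmFit, eBayes, 12 residual degrees of freedom) with a mean for each of 5 groups gave all tests, with Benjamini-Hochberg adjustment over all genes; it was tested on simulated data. A call needs an adjusted p under 0.05 and a fold of at least 2. All called members, type IV and laminin chains, and members above the median level in epithelium are named, with up to 4 called genes per list. Only 3 or 4 arrays per group limit the precision; arrays of a group correlated at 0.976 to 0.996. Alternatives were probe set choice, normalization, dim-gene filter, eBayes options, array weights, reference group, a replicate block and leaving out each array.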

Additional observations from a re-analysis of the deposited data

Results flagged for a closer look

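Each member was tested in gland B and in gland CD4+ T cells, giving 110 groups of 4 arrays. In 9 of these groups a value stood apart from the other 3 by Dixon's gap ratio at its 95% critical value. By chance alone that critical value is passed in about 5% of groups. In gland B cells, replicate 3 was the high array for Col4a1 (5.02, others 4.72), Hspg2 (5.64, others 5.48 to 5.50), Fn1 (4.29, others 4.05 to 4.09) and Col1a1 (4.01, others 3.83 to 3.84). Replicate 4 was high for Lama1 (4.59, others 4.33 to 4.36) and replicate 1 low for Col10a1 (2.59, others 2.78 to 2.79). In gland CD4+ T cells, replicate 1 was low for Col6a1 (2.33, others 2.82 to 2.86), replicate 4 low for Col5a3 (3.60, others 3.69 to 3.71) and replicate 3 high for Col20a1 (5.49, others 5.46). None of these gaps exceeded 0.5 on the log2 scale.

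For 3 members the gland against spleen difference itself differed between B and CD4+ T cells by limma's interaction contrast with Benjamini-Hochberg adjustment: Col24a1 (-2.98, adjusted p = 1.24e-07), Col6a4 (1.90, adjusted p = 3.21e-05) and Lamc1 (-1.39, adjusted p = 6.44e-05). By the same rule 1.22% of all genes had a more positive difference in B cells, as had Col6a4. A more negative one was called for 3.87% of all genes, as for Col24a1 and Lamc1. With averaged probe sets the Col6a4 value was 0.98 and no longer called.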

How the results depend on the processing

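Of the 42 calls of a member in a comparison, 34 were called under every alternative counted for them, 8 were lost under some and 0 changed direction. These counts leave out the test of each probe set on its own, in which Col4a4 had a difference of opposite sign. Lamb1 and Lamc3 each also had a probe set with a slightly negative difference, as given above. They also leave out the dim-gene filter for members it removed, such as Col24a1. The 28 members called higher in epithelium ranged from 25 (quantile normalization) to 36 (no fold minimum) over the alternatives and from 26 to 29 with 1 array left out. The lost calls were Col4a4 (0.72), Lamc3 (0.59), gland B cell Sparc (0.69), Col23a1 (0.50), and Col6a4 in CD4+ T cells (-0.69) and in the interaction (0.98) when probe sets of a gene were averaged, and Lama1 (0.76), Lamb1 (0.86) and again Lamc3 (0.96) with quantile normalization; Lamb1 was also just under the fold of 2 against spleen lymphocytes (0.9993). Members lower in epithelium numbered 2 with array medians subtracted or array weights and 1 to 2 with 1 array left out; lower in gland CD4+ T cells, 0 to 1. With averaged probe sets the counts were 0 for higher in gland B cells, lower in gland CD4+ T cells and higher in the interaction. With genes kept only if 3 arrays exceeded 4.71, the overall median, the counts were 1 for higher in gland CD4+ T cells, 1 for lower in the interaction and 0 for lower in gland B than CD4+ T cells, since Col24a1 was not tested. With no fold minimum the counts were 6 lower in epithelium, 4 higher and 1 lower in gland B cells, 3 lower in gland CD4+ T cells, 2 higher in the interaction, 9 higher in gland B than CD4+ T cells, and 5 higher and 2 lower in spleen B than CD4+ T cells. The shares of all genes without a fold minimum were not counted, so these counts are not read as results about the members. For scale, 21.9% (interaction) to 67.8% (epithelium) of all genes had an unadjusted limma p under 0.05.

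Same-numbered arrays of different groups did not deviate together (median correlation -0.02 over 31 pairs, 2 of them over 0.1), so the numbers were not taken as pairs. Of 84 pairs with different numbers, 10 were over 0.1. The highest was 0.414, between gland B replicate 2 and gland CD4+ T replicate 1. Whether such arrays shared donors was not tested, and the replicate block does not cover it. With the replicate block, 28 members were higher and 1 lower in epithelium, and no count of members called changed.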
